A study of Homo sapiens with 6 samples.

Results

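The circadian clock genes described here are the genes of a 10-gene list (BHLHE40, BHLHE41, PER1, PER2, PER3, CRY1, CRY2, CLOCK, NR1D1 and DBP) that were found by symbol in a table of 16569 genes. Of the 10, 6 were found, namely BHLHE40, PER1, PER2, CRY2, NR1D1 and DBP, and BHLHE41, PER3, CRY1 and CLOCK were not analysed here. The list was chosen by the normalized counts of these same 6 libraries, since the difference of BHLHE40 between the 2 groups of the study was already known when it was drawn up. For that reason the group differences of these 6 genes are given as a description, and the threshold of the fit across all genes serves only to say which of them are written as risen or fallen. RNA was sequenced from LX-2 cells, a human hepatic stellate cell line of wild-type genotype, in 3 libraries that received IGFBP-7 protein at 100 ng/mL and 3 that received phosphate-buffered saline (PBS). All 6 libraries share the same handling: growth with 2% serum, 18 h in medium lacking serum, then 24 h of treatment. LX-2 is 1 established line grown alone, so other liver cells and the daily cues of an animal are missing from the model. No label says that the libraries of a group are separate cultures, so the spread between libraries may be technical. The p-values of the fit weigh that spread for a gene together with the spread of genes at a similar level.

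The mammalian clock is a feedback loop of transcription. The activators CLOCK (or its relative NPAS2) and BMAL1 bind E-box sequences and switch on the PER and CRY genes, whose proteins return to the nucleus and block the activators. A side loop runs through NR1D1 and NR1D2, the REV-ERB repressors, which lower BMAL1 transcription, and the ROR receptors, which raise it. BHLHE40 (also called DEC1) is a basic helix-loop-helix repressor that occupies E-boxes and opposes CLOCK and BMAL1, and it is also induced by hypoxia and by TGF-beta in many cell types. DBP and TEF are activators of D-box genes, and NFIL3 is a repressor at the same sequence. Fibroblast-like cells in culture have such a clock, which a change of serum can set in step.

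To show where the E-box letters lie in genes that moved in different directions, the 250 bases before the start are printed for 4 of the clock genes, 5′ to 3′ on the strand of the gene, from RefSeq promoters on build GRCh38.p14. All 6 genes had an entry. Capitals mark the E-box CACGTG, the related E-prime box CACGTT and the core ACGTG that hypoxia-inducible factors bind, each searched on both strands.
BHLHE40, chr3:4979187-4979436, plus strand: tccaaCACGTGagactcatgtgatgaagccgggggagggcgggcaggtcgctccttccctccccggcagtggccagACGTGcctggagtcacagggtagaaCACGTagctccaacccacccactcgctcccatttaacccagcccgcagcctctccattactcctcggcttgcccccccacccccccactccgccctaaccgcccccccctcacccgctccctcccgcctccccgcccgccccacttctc
PER2, chr2:238288611-238288860, minus strand: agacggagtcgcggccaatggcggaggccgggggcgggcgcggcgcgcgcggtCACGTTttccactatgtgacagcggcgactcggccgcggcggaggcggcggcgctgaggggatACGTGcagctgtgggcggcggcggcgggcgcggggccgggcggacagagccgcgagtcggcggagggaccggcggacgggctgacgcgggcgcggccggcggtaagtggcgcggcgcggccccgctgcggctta
PER1, chr17:8152405-8152654, minus strand: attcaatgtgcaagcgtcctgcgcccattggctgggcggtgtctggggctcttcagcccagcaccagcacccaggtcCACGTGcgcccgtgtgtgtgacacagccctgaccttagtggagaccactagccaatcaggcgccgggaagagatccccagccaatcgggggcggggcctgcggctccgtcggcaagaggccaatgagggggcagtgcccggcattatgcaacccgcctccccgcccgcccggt
NR1D1, chr17:40100590-40100839, minus strand: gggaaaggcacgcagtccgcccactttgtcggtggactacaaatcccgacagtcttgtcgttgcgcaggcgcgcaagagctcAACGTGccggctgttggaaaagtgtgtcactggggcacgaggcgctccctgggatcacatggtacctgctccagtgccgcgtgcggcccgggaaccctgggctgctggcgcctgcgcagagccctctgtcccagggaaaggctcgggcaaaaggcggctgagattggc

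The BHLHE40 window held 1 E-box, whose first base lies 245 bases before the start, and 2 further ACGTG cores at 174 and 149 bases. The PER1 window held 1 E-box at 173 bases, PER2 held an E-prime box at 197 bases and a core at 134, and NR1D1 held an E-prime box at 168 bases. The ACGTG core is contained in both boxes, and the E-box reads the same on both strands and so counts as 2 cores. Among 35116 RefSeq windows of the same length, 6.34% held an E-box, 4.55% an E-prime box and 18.5% an ACGTG core. CRY2 has 2 starts, 1 of them with an E-prime box at 188 bases and a further ACGTG core at 35. The DBP window held no E-box, E-prime box or ACGTG core. The other letters searched were CAGAC (a SMAD box, in 38.0% of windows), the cyclic AMP response element TGACGTCA (in 1.65%) and its core TGACG (in 21.2%), AGGTCA (the core of a ROR and REV-ERB site, in 12.1%), and the D-box letters TTATGTAA (0.834%) and TTATGCAA (0.792%). BHLHE40 and PER1 each held 1 SMAD box, at 177 and 210 bases, and that of BHLHE40 overlaps its core at 174 bases. PER2 held a TGACG at 53 bases, and PER1 held AGGTCA at 144 bases and TTATGCAA at 30 bases. CRY2 held TGACG at 85 bases and AGGTCA at 62 bases before 1 start, and TGACG at 239 and 70 bases and AGGTCA at 64 bases before the other. None of the 6 genes held TGACGTCA. These matches describe letters in a short window and are not binding sites.

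**Figure D1:**
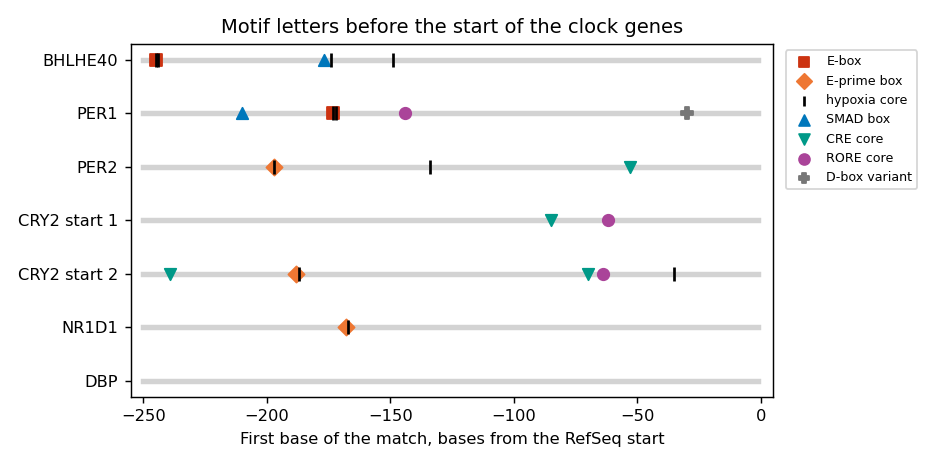
Matches of the searched motif letters in the 250 bases before each RefSeq start of the 6 clock genes, with the distance of the first base of a match from the start on the x axis and 1 row per start. BHLHE40 and PER1 each hold an E-box, at 245 and 173 bases, PER2 and NR1D1 hold an E-prime box, at 197 and 168 bases, and DBP has no match.

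Values are the authors' normalized counts, read counts divided by 1 factor per library. Recovered depth was 40599380 to 43537923 reads in the PBS libraries and 45242993 to 55479940 in the IGFBP-7 libraries. All 6 clock genes had a mean of at least 10 normalized counts, the minimum for testing, and the least covered, DBP, had 434 to 622 reads per library. With 2 reads taken as 1 fragment, counting alone gives DBP a coefficient of variation of 6.05% in PBS and 6.12% with IGFBP-7, where the libraries spread by 14.7% and 5.48%. The spread between libraries was also below counting error for CRY2 with IGFBP-7 (2.38% against 3.30%) and PER2 in PBS (3.21% against 4.12%), and above it for the other gene and group pairs. Of 12 stellate and myofibroblast markers, 9 were analysed and 8 reached a mean of 10. Of these 8, 5 rose (COL1A1, COL1A2, PDGFRB, PDGFRA and ACTA2), LUM and HAND2 fell and DCN did not pass. DES was listed at 0 in all libraries but IGFBP-7 replicate 1, with 4.09, and VIM, LRAT and GFAP were not analysed here. The summed stellate markers ran from 53640 to 57120 in PBS and from 204700 to 223700 with IGFBP-7, nearly all of it COL1A1 at 49614 ± 1794 and 198928 ± 8843. LUM went from 354 ± 58.5 to 109 ± 9.84 and HAND2 from 107 ± 17.9 to 70.8 ± 12.1. The call of HAND2 was lost without PBS replicate 2 or 3 or IGFBP-7 replicate 1 or 3 (limma adjusted p = 0.0513 to 0.106), with quantile normalization and with no filter. Hepatocyte markers, 4 of 5 listed, summed to at most 18.5 in PBS and 12.3 with IGFBP-7. The 5 endothelial markers summed to 181 to 228 in PBS and 219 to 257 with IGFBP-7. The 4 cholangiocyte and epithelial markers, nearly all KRT7, summed to 338 to 473 and 468 to 499.9, in the same order. The 5 leukocyte markers, mostly CD68, summed to 3276 to 3360 in PBS and 1728 to 2008 with IGFBP-7, and PTPRC, the defining leukocyte gene, was at 1.02 to 10.7. Within that list CD68 and CD14 fell, CD14 from 399 ± 11.0 to 86.0 ± 16.6, while CSF1R rose from 56.5 ± 8.05 to 293 ± 44.3. The part of these shifts in the clock gene values was not tested.

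After 24 h with IGFBP-7, BHLHE40 and PER2 rose and NR1D1 and PER1 fell, while CRY2 and DBP did not pass the threshold. The changes were of unequal size: BHLHE40 rose 7.69-fold, PER2 1.68-fold, NR1D1 was 36.2% lower and PER1 13.4% lower. Thus 4 of 6 genes passed an adjusted p of 0.05 in limma, where 60.6% of the 11872 tested genes did, 31.3% higher and 29.2% lower. The libraries of the 2 groups did not overlap in 4 of the 6 (BHLHE40, PER2, NR1D1 and CRY2), where 63.5% of all tested genes did not overlap. The median log2 change of the 6 was 0.03, and that of all tested genes 0.02. Only BHLHE40 among the 6 changed by 2-fold or more, which 12.4% of all tested genes did. In bulk RNA, fewer cells with a transcript and less transcript per cell cannot be told apart, and with 1 sampling time neither can a changed level and a shifted rhythm.

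BHLHE40 (ENSG00000134107) was at 2236, 2269 and 2513 normalized counts in the PBS libraries and at 18575, 18108 and 17230 in the IGFBP-7 libraries. The lowest IGFBP-7 library lay far above the highest PBS library, and the spread within a group was narrow, with a coefficient of variation of 6.47% in PBS and 3.80% with IGFBP-7. The means were 2339 ± 151 and 17971 ± 683 (SD, n = 3), a log2 change of 2.94 ± 0.05 (SE) on the log2(normalized count + 1) scale. Of all tested genes, 82 (0.691%) had a log2 change at least this high, BHLHE40 included. Without 1 library at a time the log2 change of BHLHE40 stayed between 2.91 and 2.99.

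BHLHE40-AS1, an antisense RNA gene whose exons overlap BHLHE40 in GENCODE release 29, was at 299.7, 292 and 382 in PBS and at 2268, 2299 and 2196 with IGFBP-7. It rose by 2.80 ± 0.09 on the log2 scale (limma adjusted p = 1.74e-31), with no overlap between groups. The ratio of BHLHE40 to BHLHE40-AS1 was 7.27 ± 0.626 in PBS and 7.97 ± 0.19 with IGFBP-7 (SD, n = 3), so both genes moved by nearly the same factor. Whether the counting used strand is unknown here, so for this pair the source of a read cannot be told apart, and the value of either gene is uncertain.

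Of the PER genes, which encode the repressors of the main loop, PER2 (ENSG00000132326) was at 614, 583 and 619 in PBS and at 1044, 945 and 1077 with IGFBP-7. Each IGFBP-7 library was above each PBS library. The means were 606 ± 19.4 and 1022 ± 68.5 (SD, n = 3), a log2 change of 0.75 ± 0.09, and 80.5% of tested genes changed by less in either direction.

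PER1 (ENSG00000179094), which responds rapidly to outside signals in many cells, was at 1076, 968 and 1162 in PBS and at 1046, 853 and 882 with IGFBP-7. The groups overlapped, since IGFBP-7 replicate 1 lay above PBS replicate 2. The means were 1069 ± 97.1 and 927 ± 104 (SD, n = 3). The log2 change was -0.21 ± 0.09, close to the threshold. That call was lost without PBS replicate 1 or 3 or without IGFBP-7 replicate 2 or 3. The log2 change was then -0.20, -0.14, -0.15 and -0.17 in that order. The call was also lost without a filter on low values (limma adjusted p = 0.0501), where more genes enter both the fit and the adjustment. The ratio of PER2 to PER1 was 0.57 in PBS replicate 1, 0.602 in replicate 2 and 0.533 in replicate 3. With IGFBP-7 it was 0.998, 1.11 and 1.22, so the libraries went from more PER1 counts to about equal counts of both genes. As a ratio within a library this shows unequal change in the counts of the 2 genes. PER1 shares exon sequence on the same strand with a protein-coding gene and a microRNA gene, neither analysed here. Strand cannot tell apart the reads of such shared exons, so the PER1 value, its call and this ratio are uncertain.

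CRY2 (ENSG00000121671), which encodes a cryptochrome partner of the PER proteins, was at 789, 738 and 816 in PBS and at 873, 869 and 907 with IGFBP-7. The groups did not overlap, but the difference was small, with means of 781 ± 39.9 and 883 ± 21.0 (SD, n = 3). Its log2 change of 0.18 ± 0.09 did not pass, and it was 0.037 to 0.21 over its alternatives.

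NR1D1 (ENSG00000126368), the REV-ERB-alpha repressor gene, was at 877, 842 and 945 in PBS and at 608, 515 and 577 with IGFBP-7. All IGFBP-7 libraries were below all PBS libraries. The means were 888 ± 52.7 and 567 ± 47.5 (SD, n = 3), and the log2 change was -0.65 ± 0.09. NR1D1 shares exon sequence on the opposite strand with THRA in GENCODE release 29. THRA was not analysed here, and with the strand setting unknown the NR1D1 value is uncertain. PER2 likewise overlaps an unnamed antisense transcript that was not analysed here.

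DBP (ENSG00000105516), which encodes an activator of D-box genes and is a direct E-box output of the clock, was at 299.7, 305 and 232 in PBS and at 273, 247 and 250.05 with IGFBP-7. The groups overlapped, with PBS replicate 3 below all IGFBP-7 libraries and the other 2 PBS libraries above them. The means were 279 ± 41.0 and 257 ± 14.1 (SD, n = 3), and the log2 change of -0.11 ± 0.14 did not pass. SPHK2, a lipid kinase gene that overlaps DBP on the opposite strand, was at 956 ± 94.1 and 877 ± 28.2 (limma adjusted p = 0.223), and reads shared by these 2 genes cannot be told apart either.

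**Figure D2:**
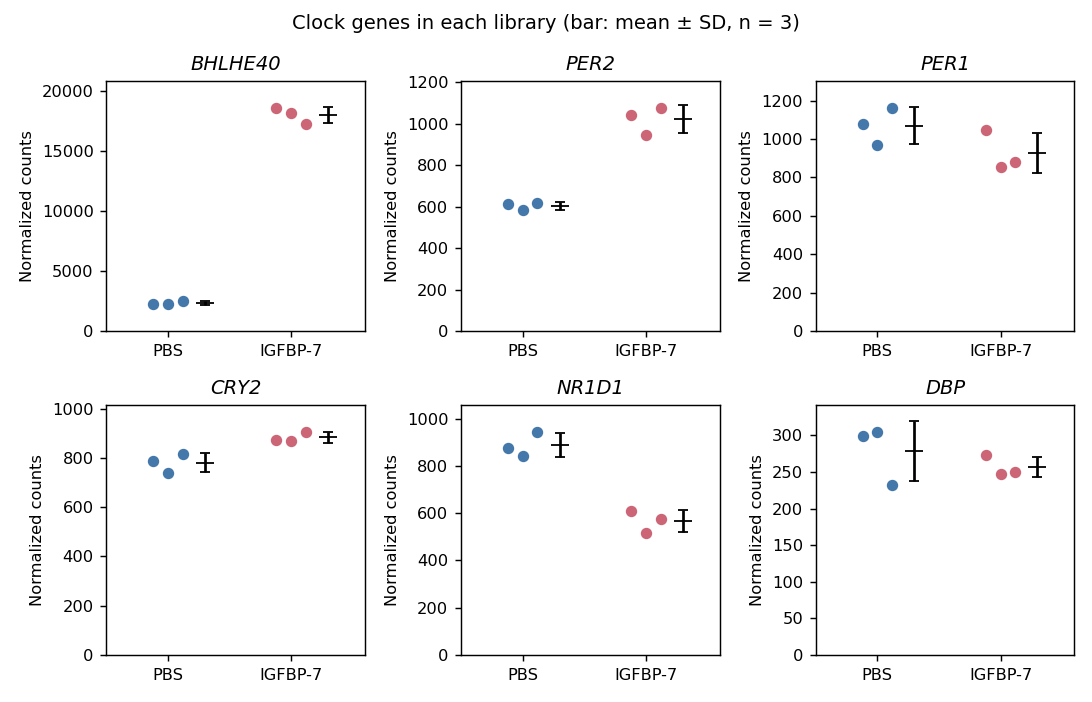
Normalized counts of the 6 clock genes in each library (points), with mean ± SD over 3 libraries beside each group, on axes that start at 0. The IGFBP-7 libraries of BHLHE40 lie between 17230 and 18575, all above the PBS libraries at 2236 to 2513. PER2 and NR1D1 separate in opposite directions, and the groups overlap in PER1 and DBP.

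Levels of different genes were compared per kilobase of exon, with exon lengths from GENCODE release 29, which may not be the annotation the authors used. A length is that of all annotated exons of a gene merged, 6544 bases for DBP. Which transcripts the cells make is unknown here, so any order between genes is approximate. In PBS the order was BHLHE40 at 609.7 ± 39.5 normalized counts per kilobase, NR1D1 at 320 ± 19.0, PER1 at 153 ± 13.9, CRY2 at 126 ± 6.43, PER2 at 88.0 ± 2.83 and DBP at 42.6 ± 6.26 (SD, n = 3). No 2 neighbours in that order overlapped within 1 SD, though the SD holds no error of the exon lengths. With IGFBP-7 the level of BHLHE40 was 4684 ± 178 per kilobase and that of NR1D1 204 ± 17.1. PER2 at 149 ± 9.95, CRY2 at 142 ± 3.39 and PER1 at 132 ± 14.8 per kilobase then did not differ beyond their spread, and DBP was last at 39.2 ± 2.15. PER2, which had been below CRY2 and PER1 in PBS, thus came level with them.

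Of 13 further core clock genes, 9 were analysed and 8 tested, and 5 of these 8 (62.5%, beside 60.6% of all tested genes) changed, 2 higher and 3 lower, with a median log2 change of -0.16 against 0.02 for all tested genes. BMAL1, the activator that pairs with CLOCK, rose from 505 ± 21.1 to 755 ± 32.9, and TEF from 682 ± 68.8 to 837 ± 48.8. NR1D2, the REV-ERB-beta gene, fell from 3902 ± 160 to 3005 ± 19.8, and NPAS2, the relative of CLOCK, from 134 ± 9.26 to 76.5 ± 9.58. BMAL2, a paralog of BMAL1, fell from 7741 ± 182 to 6685 ± 479. HLF, TIMELESS and TIPIN were not analysed here, and RORB was too low to test, with 1.69 normalized counts in IGFBP-7 replicate 2 and 0 in the others.

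BMAL1 was at 498, 488 and 529 in PBS and at 784, 719 and 760 with IGFBP-7, without overlap, a log2 change of 0.58 ± 0.10 (limma adjusted p = 9.54e-07). NPAS2 was at 143, 125 and 136 in PBS and at 65.4, 81.3 and 82.7 with IGFBP-7, a log2 change of -0.81 ± 0.21 (limma adjusted p = 0.000736). These genes, both coding for basic helix-loop-helix PAS activators, moved in opposite directions and their groups did not overlap. NR1D2 was at 3734, 3917 and 4053 in PBS and between 2984 and 3023 with IGFBP-7, a log2 change of -0.38 ± 0.06 (limma adjusted p = 1.41e-07). Both REV-ERB genes thus fell. The log2 changes of BMAL2 and TEF were -0.21 ± 0.05 (limma adjusted p = 0.000326) and 0.30 ± 0.09 (limma adjusted p = 0.00476), each with groups that did not overlap. The call of TEF was lost without PBS replicate 3 (limma adjusted p = 0.0697) and with scaling to the library total (0.149). BMAL2-AS1 and NPAS2-AS1, antisense genes with overlapping exons, were at -0.23 ± 0.11 and -0.55 ± 0.46 on the log2 scale, neither passing, and reads of these pairs cannot be told apart. BMAL2-AS1 passed as lower in 5 of 16 alternatives, namely TMM factors, edgeR, DESeq2, scaling to the library total and without IGFBP-7 replicate 1 (adjusted p = 0.0436, 0.0441, 0.0483, 0.00463 and 0.0364).

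The other 3 tested genes of the side loops and outputs did not pass, with log2 changes of 0.05 ± 0.17 for RORA, -0.11 ± 0.09 for NFIL3 and -0.22 ± 0.13 for CIART (limma adjusted p = 0.811, 0.314 and 0.139). CIART, a repressor of CLOCK and BMAL1, holds 3 E-boxes before its start, at 129, 71 and 57 bases, which 0.0797% of RefSeq windows match or exceed. Its libraries ran from 311 to 338 in PBS and from 237 to 321 with IGFBP-7 and overlapped. Of the other further core genes, NR1D2, which fell, held E-boxes at 155 and 105 bases before 1 of its 2 starts. TEF, which rose, held 1 before each start, at 195 and 193 bases. BMAL1, BMAL2, NPAS2, NFIL3 and RORA held none. CIART and NFIL3 passed as lower with scaling to the library total (limma adjusted p = 0.0163 and 0.0159), and RORA changed sign there.

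**Figure D3:**
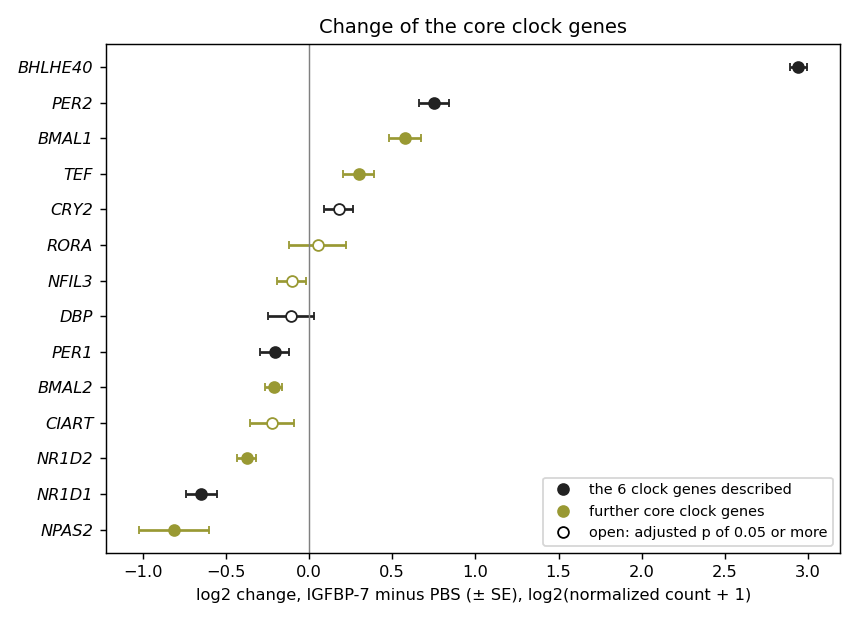
Log2 change with IGFBP-7 against PBS (x axis, log2(normalized count + 1), with SE from limma) for the 6 clock genes and 8 further core clock genes, with filled points for an adjusted p under 0.05. BHLHE40 at 2.94 stands apart from the other 13, which lie between -0.81 and 0.75.

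Ratios within a library do not depend on how libraries are scaled. BMAL1 over NR1D1 was 0.568, 0.58 and 0.559 in the PBS libraries and 1.29, 1.4 and 1.32 in the IGFBP-7 libraries. The gene with more counts thus changed, but these counts are not divided by exon length. Per kilobase of exon NR1D1 stayed above BMAL1, at 320 ± 19.0 against 75.1 ± 3.14 in PBS. With IGFBP-7 NR1D1 was at 204 ± 17.1 against 112 ± 4.90 for BMAL1 (SD, n = 3). DBP over NFIL3, an activator and a repressor of D-box genes, was 0.335 ± 0.0439 in PBS and 0.333 ± 0.0331 with IGFBP-7 (SD, n = 3), and the groups overlapped. TEF over NFIL3 went from 0.818 ± 0.0667 to 1.08 ± 0.0826 without overlap.

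**Figure D4:**
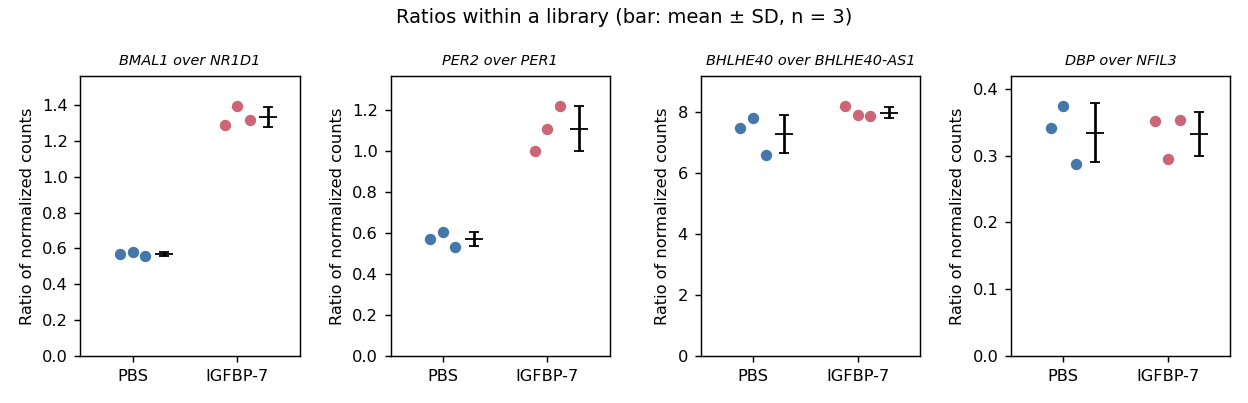
Ratios of normalized counts of 2 genes within each library (points), with mean ± SD over 3 libraries beside each group. BMAL1 over NR1D1 lies at 0.559 to 0.58 in PBS and 1.29 to 1.4 with IGFBP-7, while DBP over NFIL3 overlaps between groups.

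Genes that act around the loop were counted from lists drawn up for this comparison, each read beside all tested genes, of which 60.6% passed, 31.3% higher and 29.2% lower, with a median log2 change of 0.02. The list of inputs to PER transcription held factors and response genes of cyclic AMP, glucocorticoid and serum signals. Of 12 tested, 8 were higher, 3 were lower and CRTC2 (named after its values were seen) missed the threshold. The share passed was 91.7%, beside 60.6% of all genes, and the median log2 change was 0.25. SIK1, a kinase gene induced by cyclic AMP signalling that holds back CREB coactivators, rose from 222 ± 25.9 to 1137 ± 126, though a nearly identical gene copy makes its value uncertain. MRTFA, a coactivator of serum response factor, rose from 1653 ± 79.0 to 2363 ± 223. SGK1, a kinase gene induced by glucocorticoids, fell from 3348 ± 122 to 2157 ± 145. Of the other glucocorticoid response genes, named after their values were seen, FKBP5 fell and TSC22D3 rose. Their log2 changes were -0.44 ± 0.05 and 0.41 ± 0.11. Under library-total scaling the counts were 5 higher and 4 lower.

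Clock protein modifiers and cofactors were mostly not analysed here, with 5 of 23 tested. Of these 5, 2 were higher, 2 were lower and 1 missed the threshold (80.0% passed, beside 60.6%), and the median log2 change was -0.10. The phosphatase subunit gene PPP1CB had a log2 change of 0.22 ± 0.05. PRKAA2, a catalytic subunit of AMP-activated kinase, fell from 528 ± 40.8 to 345 ± 25.0. Named after their values were seen, SIRT1, a deacetylase gene, was at -0.19 ± 0.08 and USP2, a deubiquitinase gene, at -0.10 ± 0.66, which did not pass. Under library-total scaling PPP1CB no longer passed (limma adjusted p = 0.177), and the counts were 0 higher and 2 lower. SIRT1 no longer passed without PBS replicate 1 or 2 or IGFBP-7 replicate 2 or 3, where limma gave adjusted p values of 0.0551 to 0.104.

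Among 10 tested genes known as clock outputs in other tissues, 5 were higher, 4 lower and 1, USP2, missed the threshold (90.0% passed, beside 60.6% of all tested genes), and the median log2 change was 0.26. VEGFA, the angiogenic factor gene, rose by 2.14 ± 0.05 on the log2 scale. PPARGC1A, a coactivator gene of mitochondrial biogenesis, fell from 75.9 ± 7.5 to 11.3 ± 2.72. Log2 values centred over the 6 libraries were compared with those of BHLHE40 among 7911 protein-coding genes with a mean of at least 100. DACT1, a Wnt pathway modulator gene, and MGP, the matrix Gla protein gene, lay nearest. Their Euclidean distances were 0.203 and 0.23. Nearness here mostly reflects a similar group difference, with log2 changes of 2.79 and 2.98 beside 2.94. DACT1 rose from 210 ± 13.9 to 1457 ± 34.2 and MGP from 27.3 ± 2.41 to 223 ± 21.9. MGP was low in PBS, with 48 to 60 reads per library.

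The HES and HEY genes encode the other repressors that, like BHLHE40, carry a basic helix-loop-helix and an Orange domain. Of 6 tested, 4 were higher, none was lower and 2 missed the threshold; the share passed was 66.7%, near the 60.6% of all tested genes, and the median log2 change was 1.48. HES1, a Notch target, was at 158, 124 and 81.2 in PBS and at 1619, 1589 and 1620 with IGFBP-7, a log2 change of 3.78 ± 0.13, above that of BHLHE40. HEYL was at 2.41 ± 0.20 and HEY1, low in PBS at 19.4 ± 9.04, at 2.19 ± 0.35. Named after their values were seen, HES4 rose by 0.77 ± 0.10, and HES6 and HES7 were at -0.17 ± 0.08 and -0.42 ± 0.34. HES6 passed as lower without PBS replicate 3 or IGFBP-7 replicate 3 (limma adjusted p = 0.0457 and 0.0342), and with quantile normalization, TMM factors, edgeR or scaling to the library total (adjusted p = 0.0371, 0.037, 0.0429 and 0.00153).

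Of 8 tested partners and regulators reported for BHLHE40, its antisense gene included, 5 were higher and 3 lower (100% passed, beside 60.6% of all tested genes), and the median log2 change was 0.40. After BHLHE40-AS1, the largest changes were those of EPAS1, which encodes hypoxia-inducible factor 2 alpha and fell from 17431 ± 551 to 7566 ± 507, and ID1, a dominant-negative helix-loop-helix gene that rose from 593 ± 32.0 to 1368 ± 79.3. The others are named after their values were seen. SMAD3, a transducer of TGF-beta signals, and RXRA, a retinoid receptor gene, fell, with log2 changes of -1.17 ± 0.05 and -0.24 ± 0.06. RARA, another retinoid receptor gene, and the ID1 relatives ID2 and ID3 rose, with log2 changes of 0.59 ± 0.07, 0.45 ± 0.15 and 0.34 ± 0.09. The groups of ID3 overlapped, with IGFBP-7 replicate 2 at 1080 below PBS replicate 2 at 1086. HIF1A, SMAD2 and SMAD4 were not analysed here. Under library-total scaling 3 were higher and 3 lower, and ID2 and ID3 no longer passed (limma adjusted p = 0.0679 and 0.0579). The call of ID2 was also lost without PBS replicate 3 (limma adjusted p = 0.0734).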

How the data were processed

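RNA was sequenced from 3 PBS and 3 IGFBP-7 libraries, grouped by their titles. Per the file headers, the authors deposited gene counts after normalization, so the unit is a signal scaled by 1 factor per library. STAR, Subread, featureCounts and DESeq2 are named per the submitters' processing notes, without role. They come with build, annotation and strand setting not given in the sources used here. In each library 100% of values were whole multiples of 1 step within 0.01 of it, so reads could be recovered. Nonzero counts were 99.55% to 99.62% even, and 2 reads were taken as 1 fragment. Chi-square per degree of freedom between libraries of a group was 5.1 to 6.93, so all were counted separately.

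The main test was limma-trend (limma 3.58.1, R 4.3.3) on log2(normalized count + 1), two-sided and without covariates, for 11872 genes whose mean reached 10, with Benjamini-Hochberg adjustment over all of them and a threshold of 0.05. The limma SE and p-value draw the spread of a gene toward that of genes at a similar level. They are therefore not those of the gene's own libraries alone. The script was tested on simulated data. The design planned this test, with edgeR 4.0.16 and DESeq2 1.42.0 on recovered reads among the alternatives. The clock genes and all lists were chosen with earlier results of these data known. Named genes were the 6 clock genes, every further core clock gene, the 3 largest passing changes of each other list, the 3 nearest neighbours of BHLHE40 and overlapping genes, some of which are not reported here. Marker genes were named after their values were seen. Older symbols were matched through RefSeq. Promoter letters came from RefSeq GRCh38.p14, and overlapping genes and exon lengths from GENCODE release 29.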

Additional observations from a re-analysis of the deposited data

How the results depend on the processing

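BHLHE40, PER2, NR1D1, BMAL1, BMAL2, NPAS2 and NR1D2 kept direction and call under all 16 alternatives, with log2 changes of 2.80 to 2.99, 0.61 to 0.81, -0.79 to -0.58, 0.44 to 0.61, -0.36 to -0.16, -0.95 to -0.71 and -0.52 to -0.35. CRY2 and DBP passed under none of the 16. The call of PER1 held in 11 of 16 and that of TEF in 14 of 16. Of the 6 clock genes, 3 to 4 passed when 1 library was left out. All genes changed numbered 7192 in the main comparison and 6456 to 7211 over the alternatives, 6673 to 6841 without 1 library, 7103 with edgeR and 7108 with DESeq2. Scaling to the library total shifted the overall median by -0.14 (log2) and gave 2435 genes higher and 4176 lower, against 3721 and 3471. Relative to that median the clock genes were at 2.92 (BHLHE40), 0.73 (PER2), 0.15 (CRY2), -0.13 (DBP), -0.23 (PER1) and -0.67 (NR1D1). Under it, changed clock protein modifiers and cofactors numbered 2 in place of 4 (the cause was not tested). The log2 change turned sign for RORA at -0.089 with scaling to the library total, and without PBS replicate 1 or IGFBP-7 replicate 2 (range without 1 library -0.056 to 0.14). It also did so for RORA-AS1 (-0.023 to 0.85) and USP2 (-0.61 to 0.33) without PBS replicate 1, and none of these values passed. Over 73 named genes and 1160 values, 1112 kept direction and call, 17 newly passed, 26 no longer passed and 5 turned sign. With replicate number as a block, the replicate block fit gave 7177 changed genes and 4 of the 6 clock genes. Same-numbered libraries did not deviate together across genes (r = -0.0452, 0.0117 and -0.0491), so the numbers were not taken as pairs. Levels under 3 fragments, 2.54 to 3.20 normalized counts in 1 library, could not be told from absence.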
